A study of Mus musculus with 6 samples.

Results

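Genes of fatty acid and triglyceride synthesis were followed through bulk RNA-seq of inguinal white adipose tissue (iWAT), a subcutaneous fat depot, from mice with and without an adipocyte deletion of the long noncoding RNA *Lexis*. The genes were taken from a list of 38 symbols that cover citrate and acetyl-CoA supply, fatty acid synthesis, elongation and desaturation, and esterification, with the stearoyl-CoA desaturase genes and *Srebf1* left outside it. Of these 38, 35 had a row in the table, which holds 19509 symbols in 37024 rows, and 25 were tested among the 9872 rows that passed the filter on low counts. The 3 control animals, *Lexis*-AdWT, carried the floxed *Lexis* allele without Cre, and the 3 *Lexis*-AdKO animals carried the same allele with Adipoq-cre, which adiponectin regulatory sequence drives in adipocytes, so other cells of the depot keep the gene. Both groups were littermates on a C57BL/6 background and ate a Western diet for 12 weeks. The study gives an approximate age in weeks for most of its experiments and describes the larger cohort on the same diet as male. The sources used here do not give the age and sex of these animals one by one.

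Fatty acids are built in the cytosol from acetyl-CoA. Citrate leaves the mitochondrion through the carrier Slc25a1 and is cleaved by Acly, acetyl-CoA carboxylase makes malonyl-CoA, and fatty acid synthase uses it with NADPH to make palmitate, which elongases (Elovl) and desaturases (Fads) then modify. Acyl-CoA is joined to glycerol 3-phosphate by a series of acyltransferases, lipins remove the phosphate, and Dgat1 or Dgat2 adds the last acyl chain to give the triglyceride that a white adipocyte stores. The pathway is known to respond to feeding and insulin through the transcription factors SREBP-1c and ChREBP.

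The deposited counts per library ranged from 14470542 to 17882713. The row of *4930412L05Rik*, the mouse gene of *Lexis*, had between 8 and 9 counts in AdWT and between 11 and 21 in AdKO, so the deletion is not seen in this count and the labels alone name the groups. The adipocyte genes *Fabp4*, *Adipoq* and *Lep* had between 70997 and 563899 counts in every library, while *Pnpla2*, another adipocyte gene, was listed at 0. The counting of reads that fit more than 1 row of a symbol is not given in the sources used here. Of all symbols, 26.6% were at 0 in every library, 31.8% of those with 1 row and 20.1% of those with several. A listed 0 is therefore not read as absence below.

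No gene of the pathway was called between AdKO and AdWT after adjustment. Of the 25 tested, 8 were higher and 17 lower in AdKO, and the median log2 fold change was -0.12, beside 0.01 over all rows. With libraries left out singly this median lay between -0.03, without AdWT replicate 2, and -0.18, without AdWT replicate 3, and it was -0.05 without AdKO replicate 1. With library size as the only scaling the median was -0.0761, beside 0.0541 over all rows. At an unadjusted p under 0.05, *Pck1*, which makes phosphoenolpyruvate for glycerol 3-phosphate synthesis, and *Gpam*, a mitochondrial glycerol 3-phosphate acyltransferase, were higher, and *G6pdx*, *Fads3* and *Lpin1* were lower. Of the genes tested, *Dgat2* and *Fasn* were the most abundant. Their log2 fold changes were -0.13 and -0.10, with intervals on both sides of 0, and the sign for *Fasn* turned without AdWT replicate 2.

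Calls without adjustment took a larger share of the members than of the whole table. By edgeR (quasi-likelihood, with p values adjusted by Benjamini-Hochberg), 0 members had an adjusted p under 0.05, as did 0% of the rows tested. At an unadjusted p under 0.05, 2 members were higher (8%) and 3 lower (12%), beside 2.76% and 2.98% of the rows tested, and in both directions the share was 20% of the members beside 5.73% of the rows. The groups did not overlap in 2 members that were higher (8%) and 5 that were lower (20%), beside 6.16% and 5.72% of the rows tested, or 28% of the members beside 11.9% of the rows. These shares rest on 5 and 7 genes, and the difference between them and the rows was not tested. The members were chosen with earlier results of these data known. Their median standard error was 0.141 on the log2 scale, beside 0.196 over all rows tested. They also move with single libraries. Without AdWT replicate 1, 24% of the members and 11.8% of the rows had an unadjusted p under 0.05, without AdWT replicate 2 it was 24% and 3.20%, and without AdWT replicate 3 it was 32% and 4.90%. By DESeq2, 17 rows and no member passed an adjusted p of 0.05, and 4 members with an unadjusted p under 0.05. The direction count rests on AdWT replicate 2, since without it 12 members were higher and 13 lower, and with library size as the only scaling the rows with an unadjusted p under 0.05 were 313 higher and 162 lower in place of 272 and 294. Members past an unadjusted p of 0.05 only when 1 library was left out were *Pgd* and *Dgat1* without AdWT replicate 3, *Pnpla3* without AdWT replicate 1 or 3, *Fads2* without AdWT replicate 2 and *Elovl3* without AdKO replicate 1, and *Fads1* passed it without AdWT replicate 3 and with the replicate block. The p values measure the spread between 3 biological replicates a group.

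**Figure D1:**
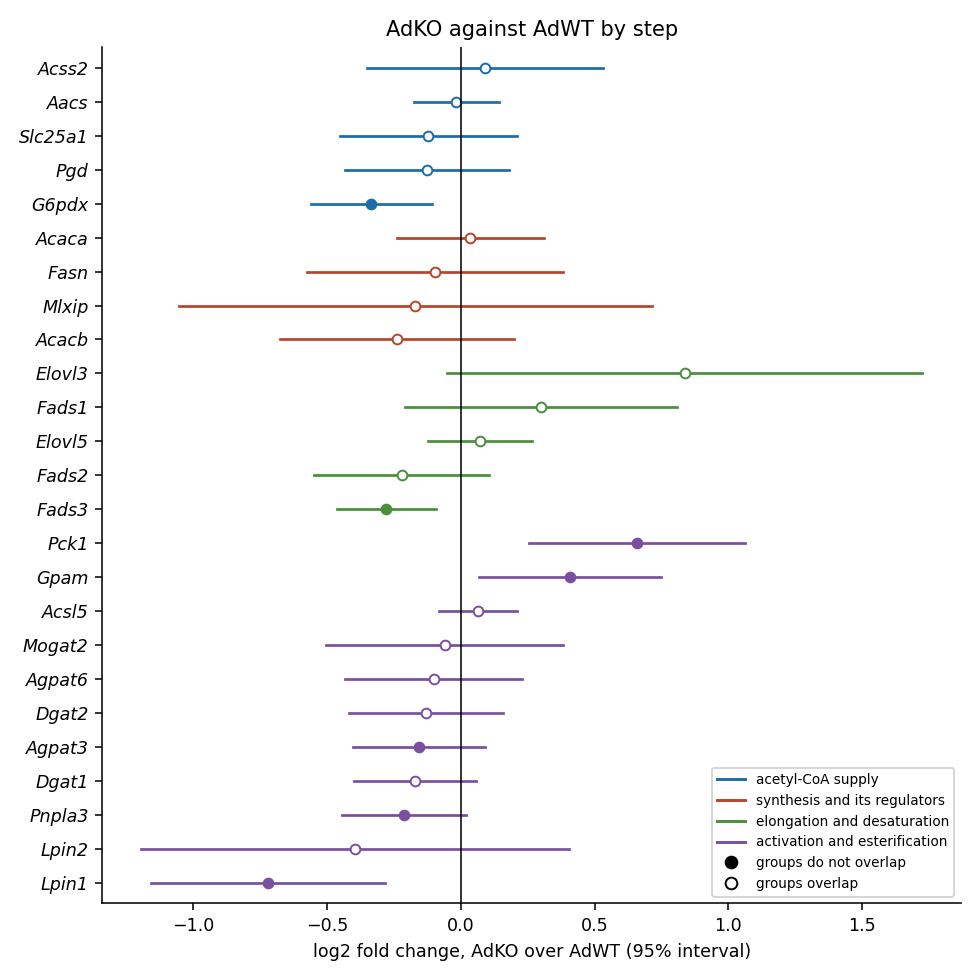
Log2 fold change of AdKO over AdWT for each of the 25 genes tested, in order of step, with its 95% interval from edgeR's quasi-likelihood fit. Filled points mark the 7 genes whose groups did not overlap, and the intervals of *G6pdx*, *Fads3*, *Lpin1*, *Pck1* and *Gpam* lie on 1 side of 0.

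Among the rows counted here, the 2 genes with the highest levels held most of the members' counts. *Acsl1*, *Agpat2* and *Mlxipl* had no row, 6 members were listed at 0 and *Acly* had 29 counts. The shares below therefore describe the counted rows and not the whole pathway. Together the members made up 2.16% to 2.75% of all counts in a library, and *Fasn* and *Dgat2* made up between 65.2% and 71.4% of that. For comparison, *Scd1*, the desaturase outside the list, alone made up 14.9% to 17.5%. Per kb of the longest annotated transcript, the mean level over the 6 libraries was 3100 CPM (counts scaled to the size of the library) per kb for *Dgat2*, 1053 for *Fasn*, 860 for *Slc25a1* and 666 for *Fads3*. *G6pdx*, *Pnpla3*, *Dgat1* and *Aacs* followed at 301, 247, 144 and 105 CPM per kb. The lowest of the tested members, *Mlxip* and *Lpin2*, were at 0.133 and 0.227 CPM per kb. Symbols with several rows may be undercounted, which could touch *Lpin2*, with 5 rows, but not *Mlxip*, with 1.

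**Figure D2:**
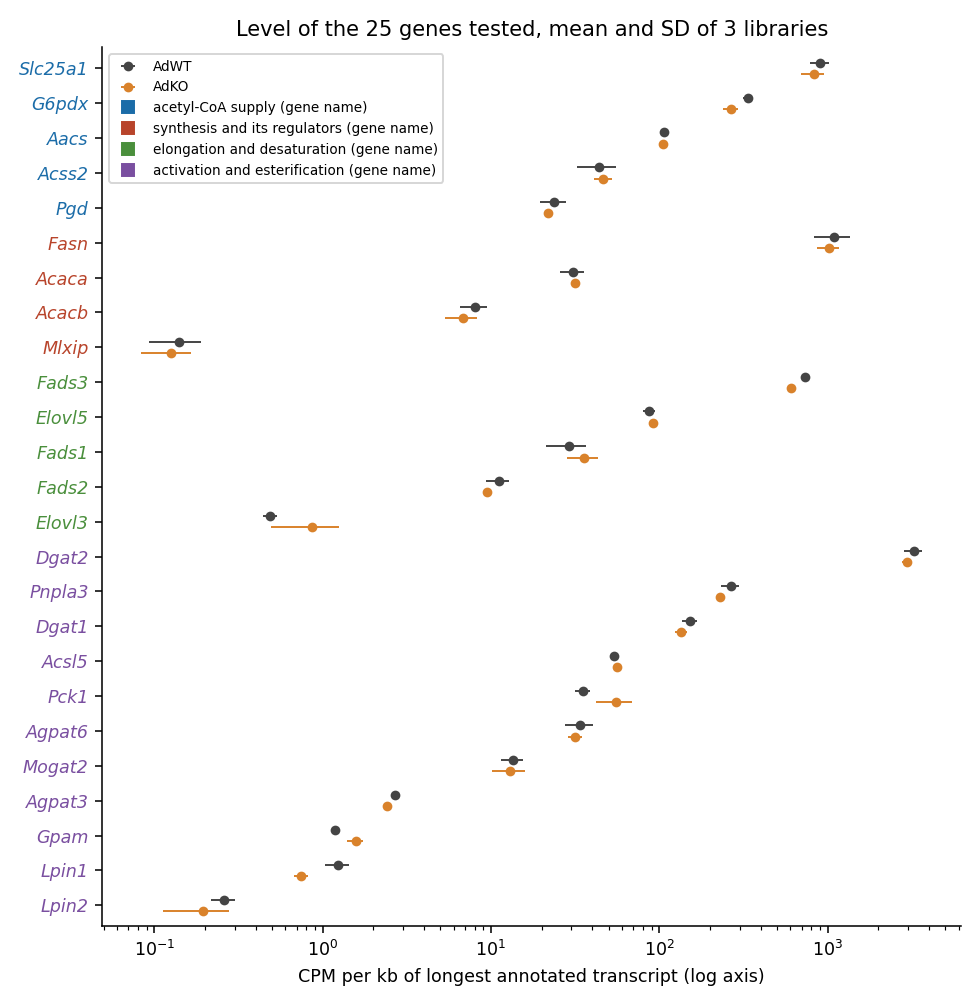
Level of each tested gene in CPM per kb of its longest annotated transcript, on a log axis, as the mean and SD of the 3 libraries of each group, with gene names coloured by step. *Dgat2* and *Fasn* lead at 3100 and 1053 CPM per kb and the group means of *Elovl3*, *Pck1* and *Lpin1* stand apart from each other.

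In the supply of citrate, acetyl-CoA and NADPH, 5 of 7 genes were tested and 1 was higher and 4 lower in AdKO (median log2 fold change -0.12). That median was -0.0459 without AdWT replicate 1, -0.0511 without AdWT replicate 2, -0.0538 without AdKO replicate 1 and -0.23 without AdWT replicate 3. The 3 most abundant were *Slc25a1*, *G6pdx* and *Aacs*. *Slc25a1*, the mitochondrial citrate carrier, had 1569, 1655 and 1285 CPM in AdWT and 1250, 1630 and 1267 in AdKO. The groups overlapped, each with low and high libraries, and the log2 fold change was -0.12 (95% interval -0.45 to 0.21). *G6pdx* (chrX:71654822-71674533, minus strand, mm9) makes the enzyme that opens the pentose phosphate pathway and yields NADPH. It had 828, 938 and 906 CPM in AdWT and 681, 653 and 786 in AdKO. Every AdKO library was below every AdWT library, at a log2 fold change of -0.33 (standard error 0.0964, unadjusted p = 0.00961, adjusted p = 0.847 by edgeR with Benjamini-Hochberg adjustment), and it lay between -0.42 and -0.29 when libraries were left out singly. The gene shares 13.6% of its annotated exon bases with *Ikbkg*. *Pgd*, the next NADPH-yielding enzyme of that pathway, had 94.8 to 95.7 CPM in AdWT replicates 1 and 2 and 68.5 in replicate 3, against 76.5 to 82.1 in AdKO, and its log2 fold change was -0.13 (95% interval -0.43 to 0.18). Without AdWT replicate 3 it was -0.28 (edgeR, unadjusted p = 0.00745, adjusted p = 0.884) and the groups did not overlap, and it was -0.0459 without AdWT replicate 1 and -0.0582 without AdWT replicate 2. *Aacs*, which makes acetoacetyl-CoA from ketone bodies in the cytosol, had 338, 356 and 336 CPM in AdWT and 346, 321 and 352 in AdKO. Its groups overlapped almost wholly and its interval was among the narrowest of the pathway, from -0.18 to 0.14. *Acss2*, which makes acetyl-CoA from acetate, had between 113 and 194 CPM and a log2 fold change of 0.09 (95% interval -0.35 to 0.53). *Acly* had 29 counts in all and did not pass the filter, and *Me1*, an NADPH-yielding malic enzyme, was listed at 0.

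In synthesis and its regulators, 4 of 5 genes were tested, 1 higher and 3 lower, with a median log2 fold change of -0.13 that turned to 0.07 without AdWT replicate 2 and to -0.34 without AdWT replicate 3. *Fasn* (chr11:120667254-120685492, minus strand), fatty acid synthase, had 11147, 12503 and 7630.15 CPM in AdWT and 8848, 11428 and 8987 in AdKO. AdWT held both the highest and the lowest library, and the highest was 1.64 times the lowest in AdWT and 1.29 times in AdKO. The log2 fold change was -0.10 (95% interval -0.57 to 0.38), which spans a fold of 0.672 to 1.30. It turned to 0.0504 without AdWT replicate 2, was -0.29 without AdWT replicate 3 and -0.23 without AdKO replicate 2, and lay between -0.0450 and -0.0308 without any 1 of the other libraries. *Acaca*, the acetyl-CoA carboxylase that supplies malonyl-CoA for synthesis, had 276, 345 and 252 CPM in AdWT and 299.6, 285 and 310.4 in AdKO. The AdKO values lay inside the AdWT range, and the log2 fold change was 0.04 (95% interval -0.24 to 0.31). *Acacb*, the carboxylase whose malonyl-CoA restrains mitochondrial fatty acid entry, had 82.1, 73.2 and 56.3 CPM in AdWT and 46.4, 71.9 and 61.1 in AdKO. Its lowest library was AdKO replicate 1, the groups overlapped, and the log2 fold change was -0.24 (95% interval -0.68 to 0.20). *Mlxip*, a glucose-sensing transcription factor related to ChREBP, had between 10 and 23 counts, and *Mlxipl*, the gene of ChREBP, had no row analysed here.

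In elongation and desaturation, 5 of 8 genes were tested, 3 higher and 2 lower, and the median log2 fold change was 0.07. It was 0.0014 without AdWT replicate 3 and turned to -0.08 when rows with at least 1 count in any library were kept. *Fads3*, a member of the fatty acid desaturase cluster on chromosome 19 (chr19:10116038-10134161, plus strand), led the step. It had 2316, 2415 and 2429.7 CPM in AdWT and 1991, 2022 and 1891 in AdKO. The libraries of each group lay close together, and all of AdKO was below all of AdWT, at a log2 fold change of -0.28 (standard error 0.0791, unadjusted p = 0.00889, adjusted p = 0.847 by edgeR with Benjamini-Hochberg adjustment), and -0.31 to -0.25 with each library left out. Its neighbours on the chromosome did not share this separation. *Fads1*, the delta-5 desaturase, had 88.5, 80.8 and 131 CPM in AdWT and 135, 93.7 and 142 in AdKO, and its log2 fold change was 0.30 (95% interval -0.21 to 0.81). *Fads2*, the delta-6 desaturase, had between 13.9 and 19.0 CPM in AdWT and between 14.0 and 14.7 in AdKO, with a log2 fold change of -0.22 (95% interval -0.55 to 0.11). The ratio of *Fads1* to *Fads2* counts, which no scaling affects, was 5.12, 5.79 and 6.89 in AdWT and 9.64, 6.49 and 9.63 in AdKO. Only AdKO replicate 2 fell inside the AdWT range, and the log2 difference of 0.52 had p = 0.2 in a two-sided exact permutation test, adjusted p = 1 over the 8 pairs of related genes compared. *Elovl5*, an elongase of polyunsaturated fatty acids, had 258, 249 and 222 CPM in AdWT and 238, 267.5 and 259 in AdKO, which overlapped (log2 fold change 0.07, 95% interval -0.12 to 0.26). *Elovl3*, an elongase known from brown and cold-exposed fat, had 14, 14 and 15 counts in AdWT and 12, 30 and 35 in AdKO. AdKO replicates 2 and 3 were above the rest and replicate 1 was the lowest of all 6, and the log2 fold change of 0.84 had an interval from -0.05 to 1.72. *Elovl6* had 49 counts in all and did not pass the filter, and *Elovl1* and *Elovl7* were listed at 0.

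In activation and esterification, 11 of 18 genes were tested, 3 higher and 8 lower (median log2 fold change -0.13). The step held both genes that were higher at an unadjusted p under 0.05. *Pck1* (chr2:172978549-172984774, plus strand), cytosolic phosphoenolpyruvate carboxykinase, is the enzyme of glyceroneogenesis, which supplies glycerol 3-phosphate in fat. It had 88.4, 106 and 92.1 CPM in AdWT and 189, 116 and 148 in AdKO. All AdKO libraries were above all AdWT libraries, by a wide margin in replicates 1 and 3 and a narrow one in replicate 2. AdKO exceeded AdWT by 0.66 on the log2 scale (standard error 0.172, unadjusted p = 0.00579, adjusted p = 0.817 by edgeR with Benjamini-Hochberg adjustment) and 0.46 to 0.81 with each library left out. The other rows of the symbol, with 1552 and 244 counts in all, had log2 fold changes of 0.59 and 0.33. *Gpam* (chr19:55142142-55201824, minus strand) had 116, 127 and 103 counts in AdWT, or 6.89 to 7.59 CPM, and 133, 167 and 153 in AdKO, where the lowest library was at 9.14 CPM. Its groups did not overlap, at a log2 fold change of 0.41 (standard error 0.145, unadjusted p = 0.0244, adjusted p = 0.851 by edgeR with Benjamini-Hochberg adjustment). A second row of *Gpam*, with 128 counts in all against 799, had a log2 fold change of -0.97, and with the rows summed the value was 0.22 (unadjusted p = 0.128), so the call depends on the row. It was also lost with DESeq2 (unadjusted p = 0.0509), without AdKO replicate 2 (edgeR, unadjusted p = 0.0881) and without AdWT replicate 3 (edgeR, unadjusted p = 0.0701).

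*Lpin1* (chr12:16542475-16596576, minus strand), a lipin that turns phosphatidic acid into diacylglycerol, was lower in every AdKO library than in any AdWT library. It had 116, 94 and 114 counts in AdWT and 58, 71 and 66 in AdKO, or 7.59, 5.62 and 7.63 CPM against 3.99, 4.68 and 3.97. AdWT replicate 2 was the nearest to AdKO. AdKO differed from AdWT by -0.72 on the log2 scale (standard error 0.187, unadjusted p = 0.00567, adjusted p = 0.817 by edgeR with Benjamini-Hochberg adjustment) and -0.86 to -0.65 with each library left out. *Lpin2*, a lipin with the same activity, had between 11 and 29 counts and a log2 fold change of -0.39 (95% interval -1.19 to 0.40). The ratio of *Lpin1* to *Lpin2* counts ranged from 3.20 to 5.68 in AdWT and from 2.42 to 6.22 in AdKO (two-sided exact permutation test, p = 0.7, adjusted p = 1).

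Among the acyltransferases, *Dgat2* (chr7:106302173-106331223, minus strand), which makes triglyceride from diacylglycerol, had 6784, 8311 and 6782 CPM in AdWT and 6273, 7104 and 6609 in AdKO. AdWT replicate 2 stood above the rest, the groups overlapped, and the log2 fold change was -0.13 (95% interval -0.42 to 0.16). *Dgat1*, an unrelated enzyme of the same reaction, had 285, 317 and 260.2 CPM in AdWT and 263, 271 and 232 in AdKO, a log2 fold change of -0.17 (95% interval -0.40 to 0.06). The count ratio of *Dgat2* to *Dgat1* varied little, at 23.8 to 26.2 in AdWT and 23.9 to 28.5 in AdKO. *Pnpla3*, a lipid droplet protein with acylhydrolase activity, had 1139.8, 1400.1 and 1149 CPM in AdWT and 1062, 1075 and 1050.2 in AdKO. Its groups did not overlap, the AdKO libraries were close together (SD 12.4 CPM against 148 in AdWT), and the log2 fold change was -0.21 (95% interval -0.44 to 0.02), or -0.11 without AdWT replicate 2. *Agpat3*, an acyltransferase of lysophosphatidic acid, had 16.1, 16.3 and 16.2 CPM in AdWT and 13.9, 14.2 and 15.4 in AdKO. The groups did not overlap, but the log2 fold change of -0.16 had an interval from -0.40 to 0.09, and the groups did overlap with library size as the only scaling and with the rows of the symbol summed. The row used holds 67.4% of the counts of the symbol. For *G6pdx*, *Fads3*, *Gpam*, *Agpat3*, *Lpin1*, *Pnpla3* and *Pck1* alike the two-sided exact permutation test gave p = 0.1, the smallest that 3 against 3 allows.

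**Figure D3:**
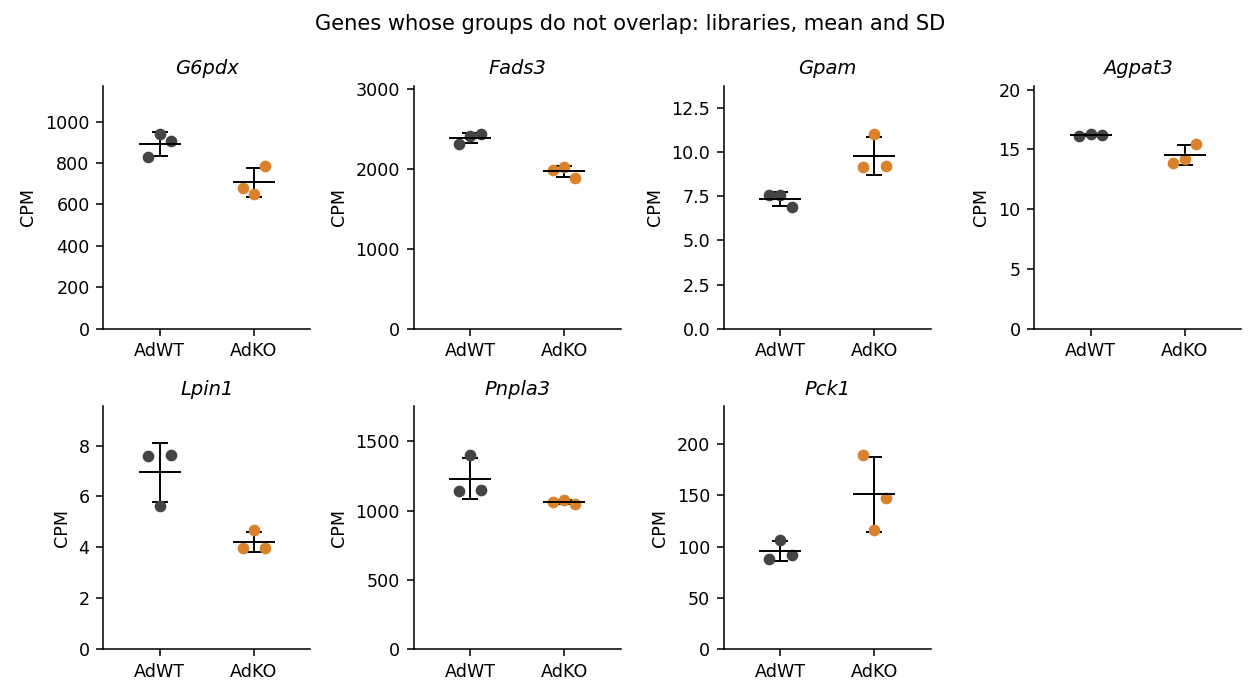
CPM of the 7 genes whose groups did not overlap, 1 panel a gene with its own linear axis from 0, where points are the 3 libraries of a group, the dash is their mean and the bar their SD. *Gpam* and *Pck1* lie higher in AdKO and the other 5 lower, and *Lpin1*, with 7.59, 5.62 and 7.63 CPM in AdWT and at most 4.68 in AdKO, has the largest fold change of the 5.

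The remaining genes of the step showed no separation. *Acsl5*, which activates fatty acids to acyl-CoA, had the smallest standard error of the members tested, with 163 to 175 CPM in AdWT and 174 to 183 in AdKO (log2 fold change 0.07, 95% interval -0.08 to 0.21). *Agpat6*, a glycerol 3-phosphate acyltransferase of the endoplasmic reticulum, had 110.1 to 161 CPM in AdWT and 112 to 134 in AdKO, and *Mogat2*, a monoacylglycerol acyltransferase, had 20.1 to 27.3 CPM in AdWT and 17.6 to 27.8 in AdKO. The groups overlapped in each of them. *Mogat1* had 30 counts in all and *Acsl4* 2, and neither passed the filter. *Acsl3*, *Agpat9* and *Gpd1*, which makes glycerol 3-phosphate from a glycolytic intermediate, were listed at 0. *Acsl1* and *Agpat2* had no row analysed here. In all, 4 members were under the filter, 6 were at 0 in every library and 3 had no row.

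Animals of the same group differed in many of these genes at once. In 9 of the 25 members, AdWT replicate 3 was the lowest AdWT library and AdKO replicate 1 the lowest AdKO library, which held for 15.8% of the rows tested. The 9 were *Slc25a1*, *Acss2*, *Pgd*, *Acacb*, *Fasn*, *Elovl5*, *Gpam*, *Dgat2* and *Mogat2*, from all 4 steps, and they were grouped after their values were seen. The grouping used rank alone, and some ranks were near ties. *Dgat2* had 6781.78 CPM in AdWT replicate 3 and 6783.83 in AdWT replicate 1. In AdKO replicates 1 and 3, *Gpam* had 9.14 and 9.19 CPM and *Slc25a1* had 1250 and 1267. In them AdWT replicate 3 was at 63.1% to 90.8% of the mean of the other AdWT libraries, and AdKO replicate 1 at 68.2% to 95.2% of the mean of the other AdKO libraries. The low value was deepest in AdWT replicate 3 for *Acss2* and *Fasn*, at 63.1% and 64.5%, and in AdKO replicate 1 for *Mogat2* and *Acacb*, at 68.2% and 69.8%. *Fads1* and *Agpat6* ran the other way, with AdWT replicate 3 at 155% and 133% and AdKO replicate 1 at 115% and 111% of the other libraries. AdWT replicate 2 was the highest AdWT library in 15 of the 25 members, against 28.8% of the rows tested. In AdWT replicate 3 the summed white adipocyte level, most of it *Fabp4*, was 54665 CPM, the highest of the 6 libraries. *Fabp4*, *Adipoq*, *Lep* and *Lipe* were each highest there. *Plin1*, the remaining tested marker of that list, was at 31.8 CPM, the lowest of the 6. The same library had the lowest summed macrophage and fibroblast levels of the 6, at 399 and 3290.1 CPM, the lowest endothelial level of AdWT, at 877 CPM, and the highest epithelial level of AdWT, at 21.4 CPM against 1.08 and 1.57. The part of these cell types in the pattern was not tested.

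**Figure D4:**
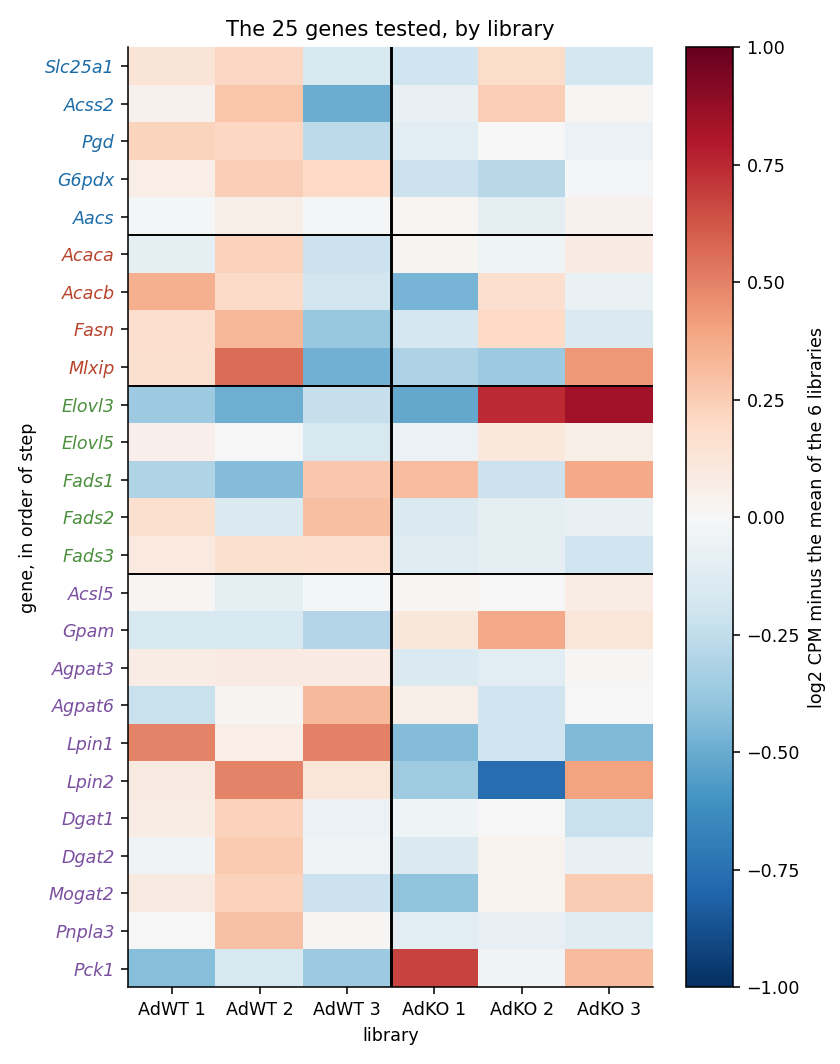
Log2 CPM of the 25 tested genes in each library minus the gene's mean over the 6 libraries, with genes in order of step, names coloured by step, and a vertical line between AdWT and AdKO. *Acss2* and *Fasn* are low in AdWT 3, *Acacb* is low in AdKO 1, and *Gpam* and *Lpin1* change colour at the line between groups.

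**Figure D5:**
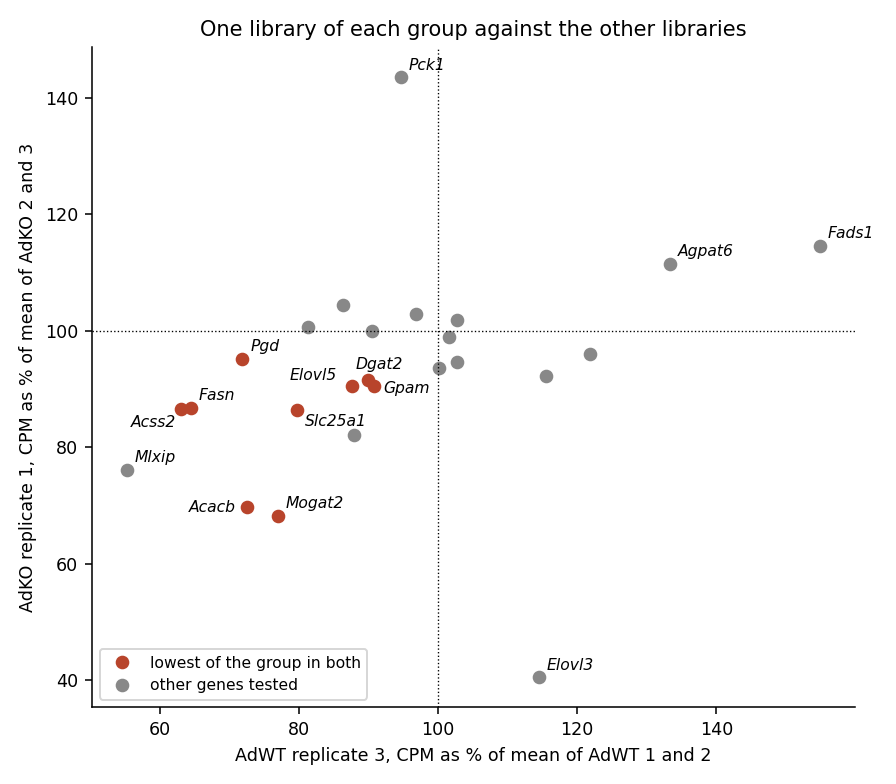
For each tested gene, the CPM in AdWT replicate 3 as a percentage of the mean of AdWT replicates 1 and 2, against the CPM in AdKO replicate 1 as a percentage of the mean of AdKO replicates 2 and 3. The 9 genes that were lowest in both libraries lie at the lower left, from 63.1% to 90.8% on the horizontal axis, together with *Mlxip* at 55.3% and 76.1% and *Lpin2* at 88.0% and 82.0%, each lowest in only 1 or neither of the libraries, while *Fads1* lies at 155% and 115%.

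Promoter windows are shown because the 9 genes ranked lowest of their groups in the same libraries, some by near ties. RefSeq windows of GRCm38.p6, another build than the mm9 of the counts, were matched for 31 of the 38 members, in 39 windows, and 250 bases before each start were searched on both strands. CCAAT, the pentamer that the factor NF-Y binds and that reads ATTGG on the other strand, was in 43.6% of the members' windows and in 33.8% of all 32851 windows. The GC box GGGCGG was in 59.0% of the members' windows against 32.7% of all, the E-box CACGTG in 10.3% against 6.02%, the sterol regulatory element TCACNCCAC in 5.13% against 1.05%, and the TCF/LEF letters CTTTGAA or CTTTGAT in 5.13% against 7.48%. Of the 9 genes, 7 had a window, and CCAAT was in at least 1 window of all 7, or in 7 of their 9 windows. *Pgd* and *Gpam* have 2 windows each, and the other window of each holds no CCAAT. Of the other 16 tested members, 12 had a window, 14 windows in all, and CCAAT was in 1 window each of 5 of them, *Mlxip*, *Fads3*, *Acsl5*, *Lpin2* and *Pnpla3*. The GC box was in 4 of the 7 and 7 of the 12, and the E-box in 2 and 1. The TCF/LEF letters were in 0 of the 7 and 1 of the 12, and the sterol regulatory element in 0 of either. These are matches of letters in genes grouped after the fact, with no test. The last 150 bases before each of the 9 starts follow, 5′ to 3′ on the gene's strand, with CCAAT on either strand in capitals.
*Slc25a1*, chr16:17928220-17928369, minus strand: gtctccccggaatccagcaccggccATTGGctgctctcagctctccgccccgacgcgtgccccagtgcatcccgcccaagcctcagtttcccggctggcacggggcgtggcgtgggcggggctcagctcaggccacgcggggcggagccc
*Acss2*, chr2:155517893-155518042, plus strand: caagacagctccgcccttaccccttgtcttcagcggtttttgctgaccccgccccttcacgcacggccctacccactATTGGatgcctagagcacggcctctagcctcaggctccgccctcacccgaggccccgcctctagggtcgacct
*Pgd*, chr4:149166706-149166855, minus strand: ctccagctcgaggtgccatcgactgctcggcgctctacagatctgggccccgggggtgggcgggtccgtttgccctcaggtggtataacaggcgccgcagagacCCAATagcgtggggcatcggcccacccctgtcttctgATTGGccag
*Pgd*, other start, chr4:149166083-149166232, minus strand: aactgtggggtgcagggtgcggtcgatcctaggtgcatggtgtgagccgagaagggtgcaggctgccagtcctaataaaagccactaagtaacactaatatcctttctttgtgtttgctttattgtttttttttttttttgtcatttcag
*Acacb*, chr5:114165368-114165517, plus strand: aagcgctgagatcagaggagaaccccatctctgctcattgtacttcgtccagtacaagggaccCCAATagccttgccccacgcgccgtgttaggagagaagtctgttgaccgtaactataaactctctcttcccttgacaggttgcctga
*Fasn*, chr11:120824548-120824697, minus strand: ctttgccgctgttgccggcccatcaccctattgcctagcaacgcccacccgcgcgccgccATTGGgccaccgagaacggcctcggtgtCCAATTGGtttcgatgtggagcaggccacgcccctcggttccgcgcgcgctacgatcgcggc
*Elovl5*, chr9:77917215-77917364, plus strand: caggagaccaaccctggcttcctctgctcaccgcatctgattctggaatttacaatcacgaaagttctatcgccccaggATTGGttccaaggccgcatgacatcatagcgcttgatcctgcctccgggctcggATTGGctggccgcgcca
*Gpam*, chr19:55127239-55127388, minus strand: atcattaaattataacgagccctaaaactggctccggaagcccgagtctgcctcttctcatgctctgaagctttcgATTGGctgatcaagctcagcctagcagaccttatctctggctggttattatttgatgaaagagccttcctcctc
*Gpam*, other start, chr19:55099478-55099627, minus strand: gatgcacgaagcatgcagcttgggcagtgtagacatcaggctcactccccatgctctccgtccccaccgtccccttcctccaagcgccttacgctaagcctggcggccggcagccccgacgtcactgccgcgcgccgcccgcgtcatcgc
For contrast, the same stretch is given for the genes whose difference between groups held at an unadjusted p under 0.05 in all 16 alternatives of scaling, filter, tool and left-out library. *Pck1*, *Lpin1* and *G6pdx* have no CCAAT there and *Fads3* has it on both strands.
*Pck1*, chr2:173152923-173153072, plus strand: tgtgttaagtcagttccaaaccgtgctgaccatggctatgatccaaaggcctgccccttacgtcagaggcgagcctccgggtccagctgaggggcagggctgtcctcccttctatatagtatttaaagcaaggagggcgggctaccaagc
*Lpin1*, chr12:16610967-16611116, minus strand: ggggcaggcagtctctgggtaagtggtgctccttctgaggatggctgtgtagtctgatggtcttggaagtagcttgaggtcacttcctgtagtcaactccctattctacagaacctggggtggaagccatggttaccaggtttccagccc
*G6pdx*, chrX:74428881-74429030, minus strand: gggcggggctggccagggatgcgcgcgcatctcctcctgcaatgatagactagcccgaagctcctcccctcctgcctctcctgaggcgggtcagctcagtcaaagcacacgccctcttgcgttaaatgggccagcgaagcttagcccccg
*Fads3*, chr19:10041398-10041547, plus strand: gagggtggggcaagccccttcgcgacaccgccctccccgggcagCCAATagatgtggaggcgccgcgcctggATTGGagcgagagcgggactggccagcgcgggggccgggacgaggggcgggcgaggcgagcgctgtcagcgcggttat

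Further genes of the pathway were not called either. Of 46 further symbols, which cover citrate and NADPH metabolism, elongation partners, glycerol handling and the transcription factors of the pathway, 37 had a row and 28 were tested. AdKO was the higher group in 13 and the lower in 15 (median log2 fold change -0.05). None had an adjusted p under 0.05 by edgeR, and 1, or 3.57% beside 5.73% of all rows tested, had an unadjusted p under 0.05. That gene was *Aqp7*, the glycerol channel of adipocytes, with 1718, 2051 and 1605 counts in AdWT and 1523, 1484 and 1466 in AdKO (log2 fold change -0.24, unadjusted p = 0.0299). AdWT replicate 3 and AdKO replicate 1 were the lowest of their groups in 4 of the 28, *Cs*, *Acsbg1*, *Agpat1* and *Agpat4*, or 14.3% beside 15.8% of all rows tested, named here after their values were seen.

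Markers of cell types moved with the groups in part. Of 10 white adipocyte markers, 6 had a row, *Pnpla2* was at 0, and of the 5 tested 1 was higher and 4 lower in AdKO. *Lep*, the leptin gene, was lower in every AdKO library (log2 fold change -0.46, unadjusted p = 0.0221 by edgeR, adjusted p = 0.851), as was *Fabp4* (log2 fold change -0.23, unadjusted p = 0.126 by edgeR). The summed level of the list was 46199 to 54665 CPM in AdWT and 41388 to 42056 in AdKO, without overlap (mean 50390.3 ± 4234 against 41652 ± 355, SD, n = 3, p = 0.1 by exact two-sided permutation, which is as low as 3 against 3 can go). The ratio of the means was -0.27 on the log2 scale, beside -0.13 for the summed level of all members. The summed level of elongation and desaturation, most of it *Fads3*, also did not overlap, at 2748 ± 62.2 CPM in AdWT and 2362 ± 48.0 in AdKO (SD, n = 3). Of 14 skeletal muscle markers, 7 were tested, and all 7 were lower in AdKO at an unadjusted p under 0.05. The 10 muscle markers with a row summed to 19.8 to 178 CPM in AdWT, highest in replicate 2, and to 6.32 to 7.29 in AdKO. Macrophage genes summed to 399 to 832 CPM in AdWT and 694 to 851 in AdKO, fibroblast genes to 3290.1 to 7140.0 and 5305 to 9764, endothelial genes to 877 to 1281 and 859 to 1222, and epithelial genes to 1.08 to 21.4 and 1.03 to 55.0, all with overlap. The 4 macrophage genes tested had log2 fold changes of 0.17 to 0.41, with a median of 0.38, and none had an unadjusted p under 0.05. Brown or beige adipocyte genes summed to 823 to 1056 CPM in AdWT and 724 to 974 in AdKO, a sum carried by *Pdk4* and *Kcnk3*, and of the 9 tested 5 were higher and 4 lower. *Ucp1*, the uncoupling protein of brown and beige fat, had 25, 8 and 7 counts in AdWT and 21, 58 and 67 in AdKO, which overlapped (log2 fold change 1.85, unadjusted p = 0.0135 by edgeR). *Cox8b*, a mitochondrial respiratory subunit of the same cells, was higher in every AdKO library (log2 fold change 0.60, unadjusted p = 0.00783 by edgeR), and the potassium channel gene *Kcnk3* was lower in every one (-0.29, unadjusted p = 0.00672). None of the 3 had an adjusted p under 0.05. The part of any of these in the differences above was not tested. In bulk tissue, fewer adipocytes and less RNA of a gene in each adipocyte cannot be told apart.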

How the data were processed

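RNA from iWAT of 3 *Lexis*-AdWT and 3 *Lexis*-AdKO mice was made into libraries with the KAPA Stranded RNA-Seq Kit. Alignment by the authors was to mm9, with HISAT2, and the values they deposited are raw counts for each row, not normalized. The counting tool is not given in the sources used here, and the submitters' processing notes name DESeq2. Every column belonged to a sample. A symbol on more than 1 row was represented by the row of highest total.

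Counts were filtered by edgeR's filterByExpr by group, scaled by TMM and compared with glmQLFit and glmQLFTest (R 4.3.3, edgeR 4.0.16, limma 3.58.1, DESeq2 1.42.0), with Benjamini-Hochberg adjustment over the 9872 rows tested and a threshold of 0.05. Standard errors were taken as log2 fold change over the root of F. CPM are TMM-scaled. The common biological coefficient of variation was 0.196. Exact permutation tests and summaries used Python 3.11.15 with numpy 2.4.6, scipy 1.17.1 and pandas 2.3.3, and count ratios had 0.5 counts added. The tests were checked on simulated data. Total counts ranged from 14470542 to 17882713, and a count of 0 allows 3 counts, or 0.179 to 0.206 CPM, for counting error only. No pair of libraries was a duplicate. The replicate numbers are treated as names.

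The members, the lists and the tests were chosen with earlier results of these data known. Values in every library are given for members with an unadjusted p under 0.05, for those whose groups did not overlap and for the 3 most abundant of each step. Gene positions and lengths are from GENCODE vM1 on NCBIM37 (mm9), and promoter windows are from RefSeq. Alternatives were DESeq2 with its defaults, other scalings and filters, a robust fit, a replicate block, summed rows and each library left out. DESeq2 with independent filtering at 0.05 was added after seeing the data.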

Additional observations from a re-analysis of the deposited data

How the results depend on the processing

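No alternative gave a member an adjusted p under 0.05. Over all rows, calls at an adjusted p under 0.05 went from 0 to 1 when rows with at least 1 count in any library were kept, to 17 with DESeq2 and to 27 with DESeq2 and independent filtering at 0.05, and was 0 to 1 with each library left out. The number of rows with an unadjusted p under 0.05 lay between 329 without AdWT replicate 2 and 1208 without AdWT replicate 1, against 566. Members with an unadjusted p under 0.05 numbered 4 without AdKO replicate 2 to 8 without AdWT replicate 3. With libraries left out singly, members whose groups did not overlap numbered 8 to 11, where fewer libraries separate more easily. The 8 came without AdKO replicate 3 or AdWT replicate 1, and the 11 without AdKO replicate 2 or AdWT replicate 3. With all 6 libraries the number was 6 by library size only and by summed rows, against 7 in the main fit. *G6pdx*, *Fads3*, *Lpin1* and *Pck1* had an unadjusted p under 0.05 in all 16 alternatives and *Gpam* in 11, not with DESeq2 in either form, summed rows, or AdKO replicate 2 or AdWT replicate 3 left out. With libraries left out singly, the median log2 fold change lay between -0.231 and -0.0459 for acetyl-CoA supply and between -0.336 and 0.0712 for synthesis. The median of elongation and desaturation was -0.08 when rows with at least 1 count were kept, with more genes in it.

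Of the 25 members, 18 kept their direction in all 16 alternatives. With each library left out, log2 fold changes that changed sign ranged from -0.11 to 0.27 for *Acss2*, -0.0431 to 0.0158 for *Aacs*, -0.0656 to 0.171 for *Acaca*, -0.29 to 0.0504 for *Fasn*, -0.48 to 0.0920 for *Mlxip*, -0.22 to 0.0415 for *Agpat6* and -0.22 to 0.10 for *Mogat2*. *Aacs* was also at 0.0316 with library size only. Differences in log2 count ratio that changed sign ranged from -0.0183 to 0.109 for *Dgat2* over *Dgat1*, -0.46 to 0.44 for *Elovl6* over *Elovl5*, -0.15 to 0.0661 for *Fads3* over *Fads2*, -1.17 to 0.70 for *Acly* over *Acss2* and -0.58 to 0.10 for *Lpin1* over *Lpin2*. The cause was not tested.

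Nothing in the sources used here says that the replicate numbers pair the animals. The correlations of same-numbered libraries' deviations from their group means were -0.08, -0.13 and 0.33, and AdWT replicate 1 correlated best with AdKO replicate 2, at 0.41. With 3 libraries a group, these values cannot decide whether the animals were paired. With the replicate block, 418 rows and 6 members had an unadjusted p under 0.05, none had an adjusted p under 0.05, and the members' median was -0.11.

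Depth limits the genes with few counts. The standard errors of *Elovl3*, *Mlxip* and *Lpin2* were 0.342 to 0.379 on the log2 scale, against 0.0622 to 0.217 for the other members tested.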
